A study of Mus with 4 samples.

Results

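The tubulin isotypes are the alpha- and beta-tubulin genes whose products pair into the building block of microtubules. The set examined here held 10 genes of this family, namely Tuba1a, Tuba1b, Tuba1c, Tuba4a, Tubb2a, Tubb2b, Tubb3, Tubb4a, Tubb5 and Tubb6. Their members were taken by name, as each probe set to which the platform annotation gave 1 symbol and that symbol was among the 10. A probe set is a group of short oligonucleotides on the array that together report 1 transcript. By this rule 8 of the 10 genes were measured, with 13 probe sets, out of 18193 genes with 1 symbol in the whole table. Tuba1b and Tuba1c were represented only by probe sets that the annotation also gives to a predicted gene, and these are described apart from the members.

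The cells were PPS-ICBR, a mouse prostate cancer line of the C57Bl6 strain, grown in DMEM with serum and antibiotics. They were plated at 60% confluency and kept overnight in 10 mL of medium, with 5 µM vorinostat dissolved in DMSO in the vorinostat group and with 5 µL of DMSO alone in the control group. Total RNA was hybridised to 4 Affymetrix arrays, 2 per group. All 4 came from this 1 line, and nothing states that arrays of 1 treatment had separate cultures, so each p-value rests on a spread between samples that could be purely technical. Vorinostat inhibits histone deacetylases, among them the cytoplasmic tubulin deacetylase encoded by Hdac6.

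Microtubules are hollow polymers of alpha- and beta-tubulin, which carry chromosomes in mitosis and serve as tracks for transport at other times. Vertebrate tubulin genes encode very similar proteins that differ mainly in the C-terminal tail, where enzymes add or remove glutamate, tyrosine and other groups. The mix of isotypes differs between tissues: Tubb5 is made in most cells and strongly in dividing ones, Tubb6 in many non-neuronal tissues, and Tubb2a, Tubb2b, Tubb3 and Tubb4a are known for their high expression in the nervous system. Cells also adjust tubulin mRNA to the pool of free tubulin, by degrading the mRNA while it is being translated.

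Values are the deposited log2 values, and changes are vorinostat minus DMSO on the log2 scale, with the standard error (SE) and the adjusted p of limma. A feature is said to have risen or fallen where that adjusted p was below 0.05. Array medians lay between 4.19 and 4.28, and the log2 difference between the 3′ and 5′ control probe sets of beta-actin, a sign of RNA quality, between 0 and 0.04. Of the 45037 probe sets tested, 16 differed by over 1 log2 unit between the DMSO arrays and 9 between the vorinostat arrays. Of all genes, 20.9% rose and 18.9% fell, so 39.9% were called in either direction, and their median change was 0.03. Among called genes 52.5% were higher with vorinostat. After each array was scaled on 7 reference genes this became 84.7%, and the median change of all genes became 0.40. That scaling raises every change by the same amount and so turns the smaller negative changes into positive ones. Among the reference genes Gusb fell by 1.42 and Polr2a by 0.75 on the log2 scale. With 4 arrays, precision is limited throughout. Without DMSO 1, DMSO 2, Vorinostat 1 or Vorinostat 2, 23.6%, 25.2%, 23.5% and 25.8% of genes were called.

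The comparison asked how transcripts of the tubulin isotypes differed between cells kept with vorinostat and with its solvent. They moved apart: the beta-tubulins Tubb2a, Tubb2b and Tubb3 and the alpha-tubulin Tuba1a were higher with vorinostat, by 2.18-fold to 4.7-fold. For Tubb2a and Tuba1a this rests on probe sets that can also match similar transcripts. The other Tubb2a probe set rose only 1.34-fold, and Tuba1a had no other probe set of its own. The beta-tubulins Tubb5 and Tubb6 were lower, by 1.92-fold and 2.71-fold. Tuba4a and Tubb4a did not pass the test. With each gene taken at its probe set of highest mean, 4 of 8 member genes rose and 2 fell, against 20.9% and 18.9% of all genes. Rises of at least 2-fold were found in 4 members and a fall of at least 2-fold in 1, where 5.74% of all genes rose and 6.17% fell by as much. The median change over the 8 genes was 0.69, but it lies between members that moved in opposite directions. In RNA from a whole culture, fewer cells of a type and less RNA per cell cannot be told apart.

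**Figure D1:**
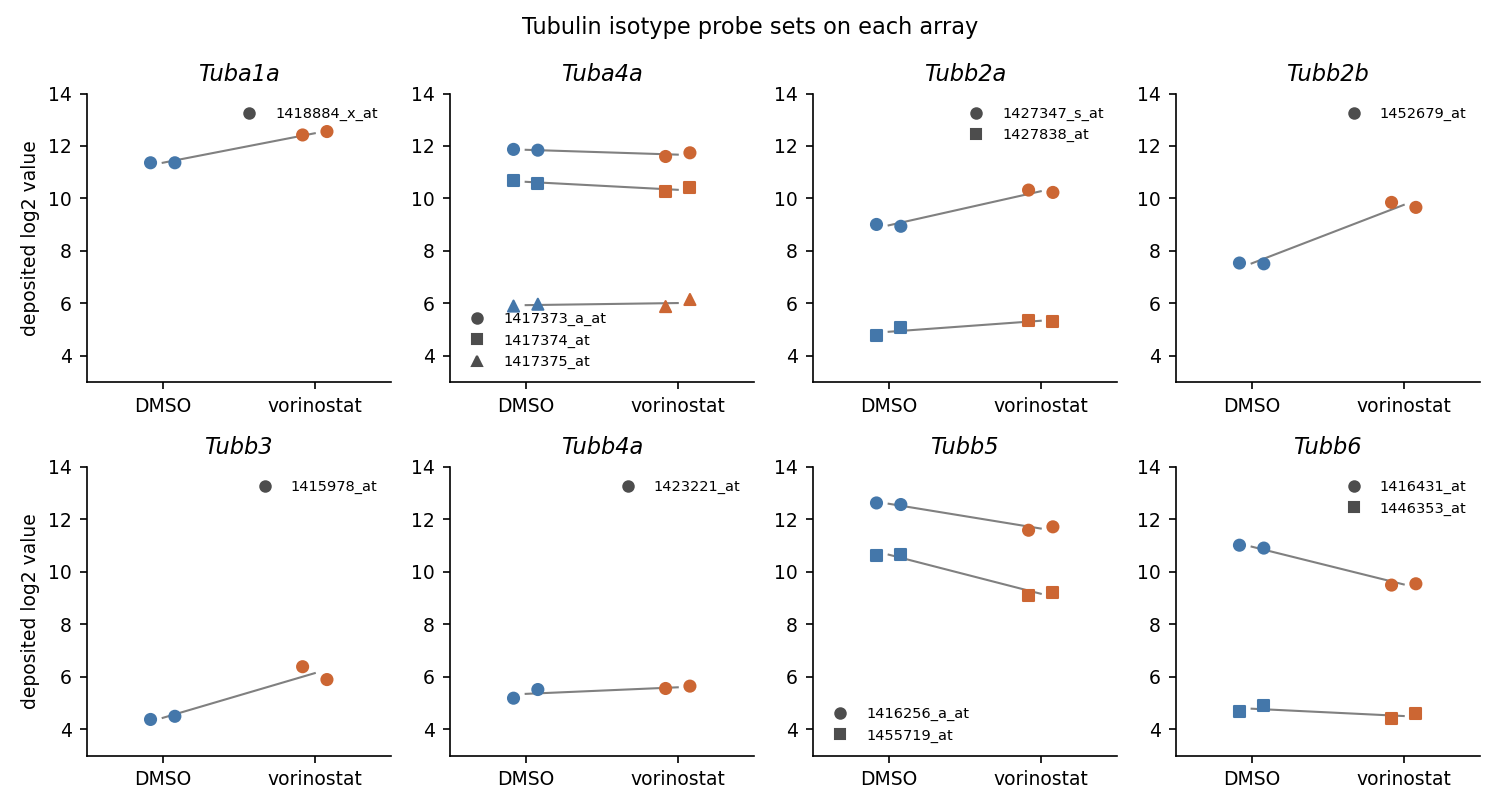
Deposited log2 value (vertical axis) of every tubulin isotype probe set with 1 symbol on each of the 4 arrays, DMSO in blue and vorinostat in orange, with a line joining the group means (n = 2 per group) and a marker shape for each probe set. The vorinostat arrays lie above the DMSO arrays for Tuba1a, Tubb2a, Tubb2b, Tubb3 and Tubb4a and below them for Tubb5 and Tubb6, whereas the lowest Tuba4a probe set overlaps.

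Tubb2b had the largest change of the family. It is abundant in the developing brain, where mutations disturb the migration of neurons. Its probe set 1452679_at read 7.54 and 7.51 on the DMSO arrays and 9.85 and 9.66 on the vorinostat arrays. The groups were apart by far more than the arrays within them differed. The rise was 2.23 (SE 0.10, adjusted p = 0.0002 by limma), or 4.7-fold, and 0.731% of all genes had a larger one. A further probe set, 1449682_s_at, is annotated to Tubb2b together with the pseudogene Tubb2a-ps2. It went from 6.81 and 6.93 to 9.18 and 9.06, a rise of 2.25 (SE 0.09, adjusted p = 0.000183). Of 3 probe sets annotated to that pseudogene alone, 1419965_at rose by 0.34 (SE 0.08, adjusted p = 0.0234), and the other two lay near background on all arrays. Near background here means within 1 log2 unit of the highest tryptophan control of an array, a bacterial transcript, which put the limit between 3.54 and 3.78.

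Tubb2a, the neighbour of Tubb2b in the genome and nearly its copy, is likewise rich in neurons. Probe set 1427347_s_at read 9.01 and 8.94 with DMSO and 10.32 and 10.23 with vorinostat. The rise of 1.30 (SE 0.08, adjusted p = 0.000411) is 2.46-fold, and the groups did not overlap. The mark _s_ in the name stands for probes that can match several transcripts, so part of this signal may come from Tubb2b, which was not tested. The other probe set of Tubb2a, 1427838_at, carries no such mark and gave low values, 4.77 and 5.07 against 5.36 and 5.32. It rose by only 0.42 (SE 0.12, adjusted p = 0.0478), and this call was lost without DMSO 1 (0.27), without Vorinostat 1 (0.40) and without Vorinostat 2 (0.44). It was lost as well with a robust prior variance (adjusted p = 0.0514), with arrays centred on their median (0.052), with quantile normalization repeated (0.0642) and among probe sets without a mark (0.0539). The mean of both Tubb2a probe sets rose by 0.86.

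Tubb3 encodes the class of beta-tubulin used as a marker of neurons, and it is also made by some carcinomas. Its only probe set, 1415978_at, read 4.38 and 4.50 with DMSO, little above the background limit, and 6.39 and 5.90 with vorinostat. Both vorinostat arrays were higher than both DMSO arrays, and they differed from each other more than the DMSO arrays did. The rise was 1.70 (SE 0.17, adjusted p = 0.0015), or 3.25-fold, with a range of 1.46 to 1.95 when single arrays were left out. Tubb4a, a beta-tubulin of myelinating glia and neurons, read 5.19 and 5.52 with DMSO and 5.56 and 5.65 with vorinostat. These arrays did not overlap but nearly touched, and the change of 0.25 (SE 0.13, adjusted p = 0.218) did not pass. The change was 0.09 without DMSO 1 and 0.41 without DMSO 2, and passed in neither case. Scaled on the reference genes it was 0.62 and passed (adjusted p = 0.0121).

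Tubb5 supplies the beta-tubulin of most dividing cells. At probe set 1416256_a_at it went from 12.63 and 12.57 with DMSO to 11.59 and 11.72 with vorinostat. The fall of 0.94 was 1.92-fold, with a change of -0.94 (SE 0.09, adjusted p = 0.00109) by limma. At probe set 1455719_at the arrays read 10.64 and 10.68 and then 9.11 and 9.23, a change of -1.49 (SE 0.09, adjusted p = 0.00032), or 2.81-fold lower. Both probe sets thus gave a fall, and the groups did not overlap at either.

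Tubb6 is a beta-tubulin found in many tissues outside the nervous system and known to disturb microtubule arrays when it is abundant. Probe set 1416431_at went from 11.02 and 10.91 to 9.50 and 9.55, a change of -1.44 (SE 0.08, adjusted p = 0.000341), or 2.71-fold lower. Its fall was exceeded by 2.84% of all genes. The other probe set, 1446353_at, read 4.67 and 4.91 with DMSO and 4.41 and 4.61 with vorinostat. That change of -0.28 (SE 0.12, adjusted p = 0.155) did not pass, ranged from -0.39 to -0.16 when single arrays were left out and turned to 0.09 under reference-gene scaling. The mean of both probe sets was -0.86.

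Among the alpha-tubulins with a probe set of their own, Tuba1a is the main isotype of growing neurons. Probe set 1418884_x_at read 11.36 on both DMSO arrays and 12.42 and 12.55 with vorinostat. The rise was 1.12 (SE 0.09, adjusted p = 0.000622), or 2.18-fold, with no overlap of the groups. The mark _x_ stands for probes that can hybridise to similar transcripts, and alpha-tubulin genes are very similar, so this value is uncertain as to which gene it measures. Tuba4a, an isotype of muscle, platelets and neurons, encodes no tyrosine at its end, unlike most alpha-tubulins. Its brightest probe set, 1417373_a_at, went from 11.87 and 11.84 to 11.60 and 11.74, a change of -0.18 (SE 0.09, adjusted p = 0.192). Probe set 1417374_at gave -0.30 (SE 0.09, adjusted p = 0.0622) and 1417375_at gave 0.08 (SE 0.12, adjusted p = 0.645). With an intensity trend in the prior variance, the first 2 of these passed as lower (adjusted p = 0.0208 and 0.00476), and under reference-gene scaling they turned to 0.19 and 0.07 without passing, while 1417375_at passed at 0.45. The direction of Tuba4a is therefore not settled.

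A further 5 probe sets are shared between an isotype of the set and another symbol. Tuba1b supplies most alpha-tubulin in dividing cells, and 1423846_x_at, shared by Tuba1b and the predicted gene Gm5620, read 13.39 and 13.44 with DMSO and 12.46 and 12.58 with vorinostat. It fell by 0.89 on the log2 scale (SE 0.09, adjusted p = 0.00126 by limma). Tuba1c is a further ubiquitous alpha-tubulin. The probe sets it shares with Gm6682, 1416128_at and 1448232_x_at, changed by -0.58 (SE 0.09, adjusted p = 0.00638) and -0.55 (SE 0.08, adjusted p = 0.00544). At 1416128_at the arrays read 6.91 and 6.98 against 6.29 and 6.43, and at 1448232_x_at 8.73 and 8.77 against 8.15 and 8.24. Neither pair overlapped. The call of 1416128_at was lost without DMSO 1 (-0.62), DMSO 2 (-0.55) or Vorinostat 1 (-0.51), that of 1448232_x_at without DMSO 2 (-0.53) or Vorinostat 1 (-0.51), and both under reference-gene scaling (-0.22 and -0.18). A probe set shared by Tuba1a and Gm6682, 1433584_at, lay close to background, at 3.70 and 3.89 against 3.67 and 3.44, and did not pass (-0.24, SE 0.12, adjusted p = 0.201). It ranged from -0.36 to -0.13 when single arrays were left out and turned to 0.13 under reference-gene scaling. The fifth is the one of Tubb2b described above.

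**Figure D2:**
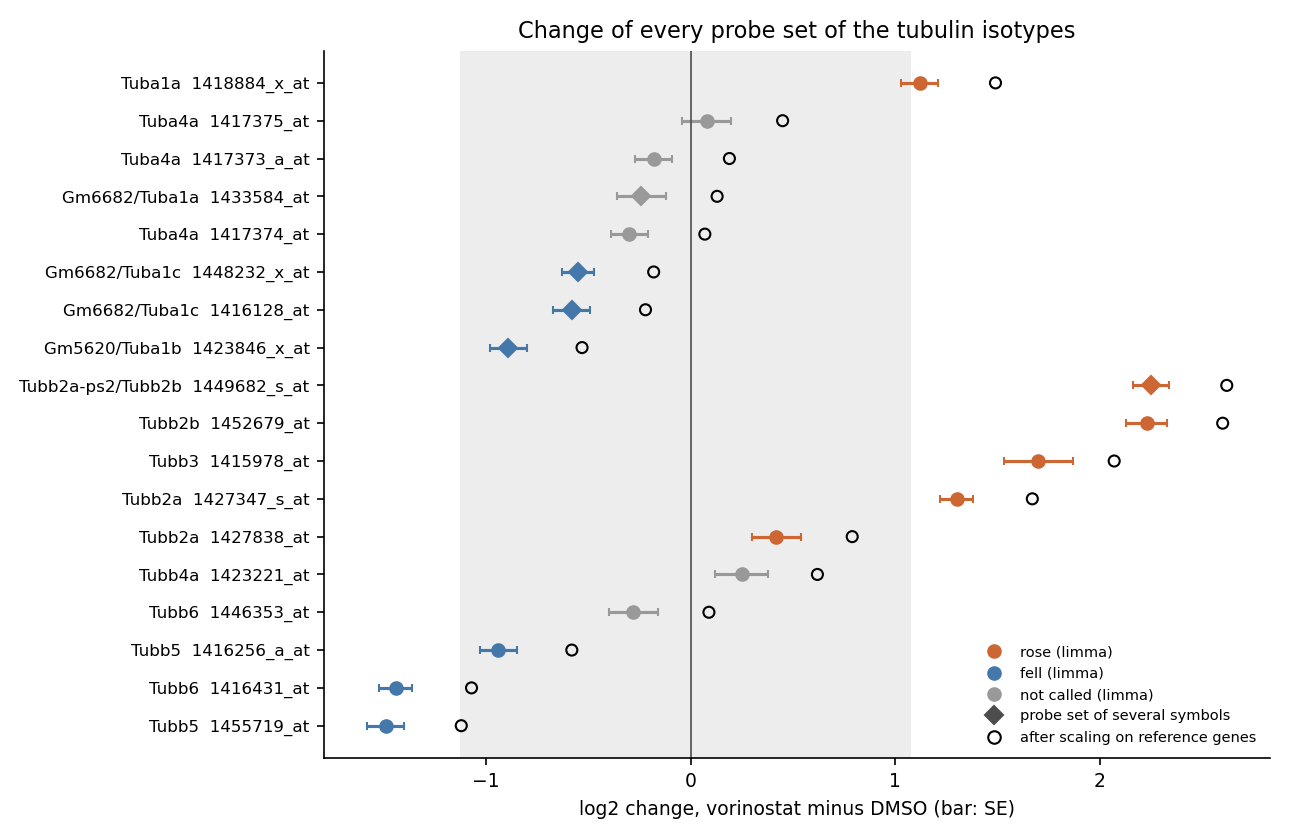
Log2 change (horizontal axis, vorinostat minus DMSO, n = 2 arrays per group, bars show the SE) of the 13 member probe sets (circles) and the 5 shared ones (diamonds), with alpha-tubulins above and beta-tubulins below. The grey band holds the 5th to 95th percentile of all genes (-1.12 to 1.07). Open circles give the change after scaling on the reference genes, at which the called probe sets keep their direction, although those of Tuba1c no longer pass.

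Counted by probe set, 5 of the 13 rose, 3 fell and 5 did not pass, where 16.5% of all probe sets rose and 15.7% fell, or 32.2% in either direction. In 12 of the 13 the arrays of the groups did not overlap, against 62.8% of all probe sets. In Tubb2a and Tubb6 the brighter probe set moved most, and the dimmer one was nearer to no change. In Tubb5 the dimmer one moved more (-1.49 against -0.94). Of Tuba4a, 1417374_at moved more than the brightest (-0.30 against -0.18), and none passed. Restricted to probe sets whose names carry no _s_, _x_ or _a_ mark, 7 member genes remained measured and 2 rose, Tubb2b and Tubb3, while Tubb5 and Tubb6 still fell. In that setting 19% of all genes rose and 17.3% fell.

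A difference between isotypes can be read within an array, where the scaling of the array cancels out. These pairs were chosen after the values were seen, and with 2 arrays against 2 an exact two-sided permutation test cannot go below p = 0.333, so they are given without a test. The difference between Tubb2b and Tubb5 was larger by 3.33 and 3.02 on the vorinostat arrays than its mean on the DMSO arrays, which lay at -0.02 and 0.02 around that mean. For Tubb3 against Tubb5 the shifts were 2.95 and 2.34, and for Tubb2a against Tubb5 2.35 and 2.14. Tubb6 shifted further down than Tubb5, by -0.46 and -0.53 at the probe sets of highest mean. The probe sets of Tubb5 differed from each other by as much, -0.55 on both vorinostat arrays, so the order of Tubb5 and Tubb6 is not settled. Tuba1a against the probe set of Tuba1b and Gm5620 shifted by 2.02 on both vorinostat arrays. In each of these pairs the spread between arrays of a group was smaller than the shift.

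**Figure D3:**
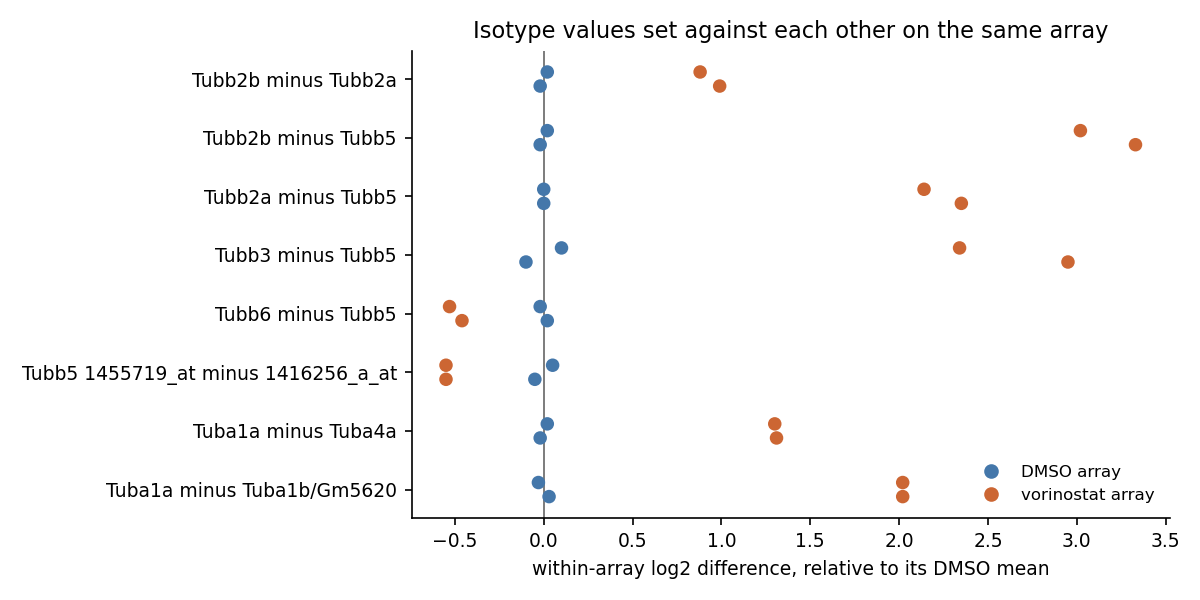
Within-array log2 difference between pairs of tubulin probe sets (horizontal axis), relative to its mean over the DMSO arrays, for each DMSO array (blue) and vorinostat array (orange). The vorinostat arrays lie at 3.33 and 3.02 for Tubb2b against Tubb5 and at 2.02 for Tuba1a against Tuba1b/Gm5620, whereas the DMSO arrays stay within 0.10 of 0.

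Probe sets that moved in opposite directions can be annotated to isotypes that lie side by side in the genome. In the RefSeq gene table (assembly GRCm38.p6), read here only for the order of protein-coding genes, Tuba1a lies between Tuba1b and Tuba1c. The Tuba1a probe set rose while the probe sets of Tuba1b and Tuba1c, shared with predicted genes, fell. Those of Tuba1a and Tuba1b carry the mark _x_, so which gene each measures is uncertain. At 1433584_at, shared by Tuba1a and Gm6682 and close to background, the change of -0.24 did not pass. Beyond Tuba1b, Lmbr1l rose by 0.78 (SE 0.09, adjusted p = 0.00265), and beyond Tuba1c, Prph changed by 0.32 (SE 0.09, adjusted p = 0.0505). Tubb2a and Tubb2b are neighbours and both rose. On their outer sides Bphl rose by 0.41 (SE 0.08, adjusted p = 0.0127) and Psmg4 changed by -0.68 (SE 0.08, adjusted p = 0.00216), a fall. Tubb3 rose while its neighbours Mc1r (-0.01, SE 0.10) and Def8 (0.00, SE 0.09) did not pass. Tubb5 fell between Flot1, which rose by 2.20 (SE 0.09, adjusted p = 0.000183), and Mdc1, which changed by -0.62 (SE 0.10, adjusted p = 0.00657). Tubb6, which fell at its brighter probe set, lies between Cidea and Afg3l2, which both rose. Cidea, near background with DMSO, rose by 2.05 (SE 0.22, adjusted p = 0.00183) and Afg3l2 by 0.37 (SE 0.10, adjusted p = 0.0429). The neighbours of Tuba4a and Tubb4a, which did not pass, are not given.

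For the 3 members with the largest changes, the genes with the most similar values over the 4 arrays were looked up, by the Euclidean distance between profiles centred on their own mean. Nearest to Tubb2b were Pld3 (distance 0.052), Pcx (0.063) and Hspa1a (0.078). Nearest to Tubb3 were Egr2 (0.113), Tmeff2 (0.125) and Parm1 (0.161), which share its higher value on Vorinostat 1, and of which Egr2 lay near background with DMSO, at 2.68 and 2.83. Nearest to Tubb6 were Gusb (0.024), Tipin (0.029) and Spdl1 (0.035), with changes of -1.42, -1.44 and -1.44. In a design of 4 arrays and 2 groups such a distance mostly ranks genes by the size of their change.

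Of 8 measured tubulins outside the set, 3 fell, 0 rose by limma (0 also at an unadjusted p under 0.05) and 5 did not pass, where 20.9% of all genes rose and 18.9% fell. Their median change was -0.26, and 0.11 under reference-gene scaling. Tube1, the epsilon-tubulin of centrioles, went from 6.46 and 6.32 to 4.59 and 4.25, a change of -1.97 (SE 0.13, adjusted p = 0.000474). A further Tube1 probe set, 1437942_x_at, gave a smaller fall (-0.89, SE 0.12, adjusted p = 0.00383), and the last lay near background. Tubb4b, a ubiquitous beta-tubulin, went from 10.95 and 10.93 to 10.04 and 10.21 (-0.82, SE 0.09, adjusted p = 0.00215), but 5 other, dimmer probe sets of it did not pass. Tuba8 fell at its brighter probe set (-0.67, SE 0.11, adjusted p = 0.00903) and did not pass at 1446771_at (-0.07, SE 0.09, adjusted p = 0.64), and under reference-gene scaling the first did not pass either (-0.30, adjusted p = 0.0644). Gamma-tubulin, which nucleates microtubules, was represented by Tubg1 (-0.20, SE 0.10, adjusted p = 0.187, turning to 0.17 under reference-gene scaling) and by Tubg2, which lay near background. Probe sets shared by the alpha-tubulins Tuba3a and Tuba3b, 1416311_s_at and 1448296_x_at, changed by -0.99 and -0.65 and passed. Under reference-gene scaling 3 of the 8 were called higher, as were 62.3% of all genes.

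The genes around tubulin are described by counts and medians from fixed lists. Up to 4 genes per list were named by rule, and those given beyond them were picked after their values were seen. Of 22 genes for tubulin folding and for the control of tubulin mRNA, 3 rose and 5 fell, with a median of -0.10 that turned to 0.27 under reference-gene scaling. These counts are near the shares of all genes. The falls were those of the prefoldin subunit Pfdn4 and of subunits of the chaperonin CCT, which folds tubulin and actin: Cct4 (-0.73, SE 0.08), Tcp1 (-0.60, SE 0.08), Cct3 and Cct5. Of the other Cct4 probe sets 4 fell, 1415868_at did not pass and 1430034_at rose by 0.55 (SE 0.12, adjusted p = 0.0188). Under reference-gene scaling Tcp1 (-0.23, adjusted p = 0.05), Cct3 (-0.09, adjusted p = 0.412) and Pfdn4 (-0.14, adjusted p = 0.174) no longer passed. Cct5 turned from -0.35 to 0.02, and only Cct4 still passed as lower. The rises were those of the cofactors Tbcd (0.62, SE 0.08) and Tbcc (0.55, SE 0.08), which help assemble the dimer, and of Ttc5 (0.61, SE 0.08), whose product recognises nascent tubulin and starts the decay of its mRNA. With any single array left out fewer of these genes fell, and fewer of all genes were called too. Reference-gene scaling gave 12 rises and 1 fall. Of all genes, 62.3% rose and 11.3% fell under that scaling. An intensity trend gave 7 rises and 11 falls, where 22.8% and 21% of all genes did. A filter for probe sets above the median level gave 5 and 8, where the shares were 33.6% and 32.2%.

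Enzymes that modify tubulin had 8 of 22 members higher and 5 lower, against 20.9% and 18.9% of all genes, with a median of 0.22. Both sides of the acetylation of alpha-tubulin were higher. The acetyltransferase Atat1 went from 4.78 and 4.93 to 6.50 and 6.63, a rise of 1.71 (SE 0.10, adjusted p = 0.000318), and its 4 probe sets all rose, by 0.81 to 1.71. The deacetylases Hdac6 (0.88, SE 0.09) and Sirt2 (0.96, SE 0.08) rose as well. Of the enzymes that attach glutamate chains, Ttll1 rose by 1.86 (SE 0.09, adjusted p = 0.000263), from 8.43 and 8.33 to 10.32 and 10.17. Its probe set 1426427_at rose by 1.79, whereas the dimmer 1443193_at did not pass (-0.06). Ttll4 changed by -1.52 (SE 0.15, adjusted p = 0.00137), a fall. Its probe set 1436249_at fell less (-0.66, SE 0.14), and its remaining probe sets lay near background and did not pass. The deglutamylase Agtpbp1 rose by 0.58 (SE 0.12). Of the detyrosinating pair, the enzyme Vash2 fell (-0.92, SE 0.10) and its partner Svbp rose (1.30, SE 0.10). The tyrosine ligase Ttl did not pass (-0.26, SE 0.09, adjusted p = 0.0778) and turned to 0.11 under reference-gene scaling. With any single array left out fewer members rose and fewer fell, and fewer of all genes were called too. Reference-gene scaling gave 16 rises and 2 falls, where 62.3% of all genes rose and 11.3% fell.

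Genes of the gamma-tubulin ring complex and of augmin, which start new microtubules, mostly fell: 14 of 19 were lower and 1 was higher, where 18.9% of all genes fell and 20.9% rose. Their median was -0.68. The augmin subunits Haus5 (-1.85, SE 0.13) and Haus4 (-1.57, SE 0.09) fell most, and Cdk5rap2 (-1.49, SE 0.08), Nedd1 (-1.17, SE 0.08) and Tubgcp3 (-1.02, SE 0.09) fell too. Mzt2 rose by 0.68 (SE 0.08). Under reference-gene scaling the median was -0.31 and 3 of the 19 changes turned positive. In that setting 10 fell and 2 rose, where 11.3% of all genes fell and 62.3% rose. With any single array left out fewer members fell, and fewer of all genes were called too.

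Proteins that bind, track or cut microtubules had 11 of 35 members higher and 6 lower, beside 20.9% and 18.9% of all genes, with a median of 0.22. With each gene at its probe set of highest mean, Map2, a stabiliser of dendritic microtubules, had the largest rise. It went from 5.56 and 5.50 to 8.20 and 8.10 (2.62, SE 0.08, adjusted p = 0.00016). Its other 3 probe sets, some of them near background with DMSO, rose as well. Stmn2, a neuronal stathmin, rose by 1.86 (SE 0.13). Its dimmer probe set, near background with DMSO, rose by 3.56 (SE 0.10), more than Map2. Stmn1, the stathmin of dividing cells, moved the other way, from 11.13 and 11.21 to 9.79 and 9.66 (-1.45, SE 0.09, adjusted p = 0.000372). End-binding genes split too: Mapre1 fell (-0.59, SE 0.08), and Mapre2 (1.37, SE 0.10) and Mapre3 (1.17, SE 0.09) rose. Mapre1 no longer passed under reference-gene scaling (-0.23, adjusted p = 0.0539). The largest fall was that of Fignl1 (-2.44, SE 0.08), a relative of the severing enzyme fidgetin, and the spindle assembly factor Tpx2 fell as well (-1.44, SE 0.10). Under reference-gene scaling 24 of them were called higher, where 62.3% of all genes were.

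**Figure D4:**
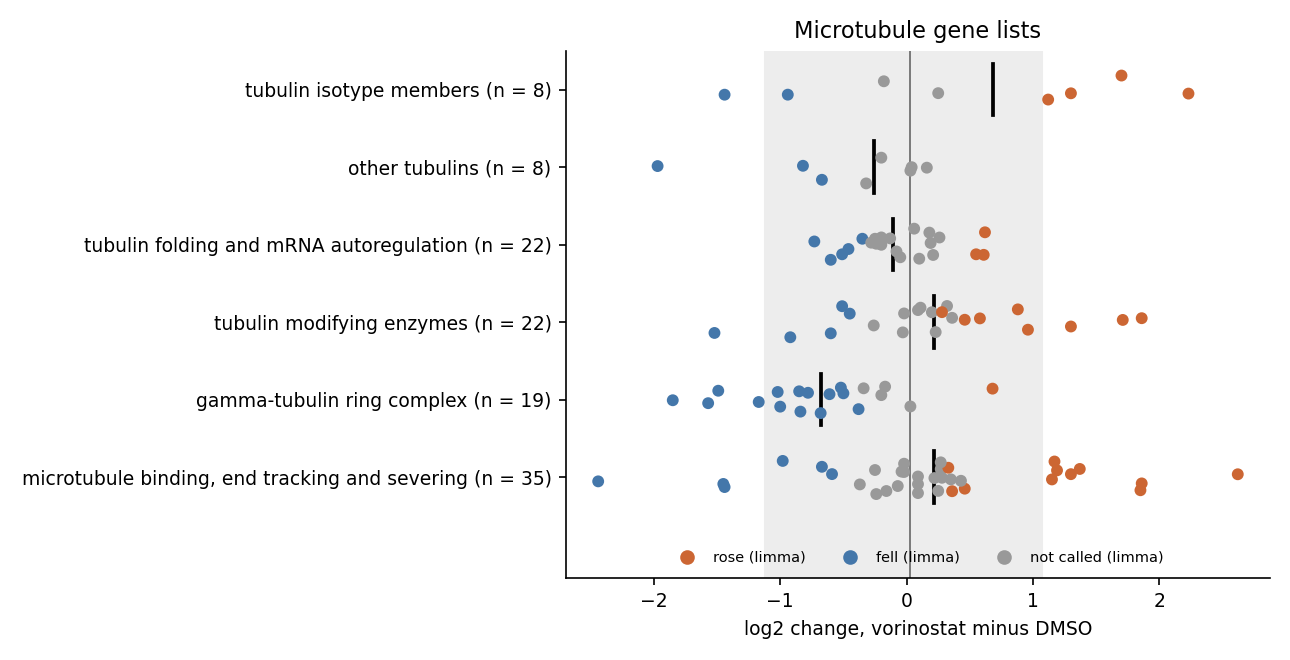
Log2 change (horizontal axis, vorinostat minus DMSO) of each measured gene of the isotype set and of 5 microtubule gene lists, coloured by the limma call, with the median of each list as a black bar. The grey band is the 5th to 95th percentile of all genes and the thin line their median (0.03). The isotypes spread to both sides, from -1.44 to 2.23, whereas the gamma-tubulin and augmin genes lie mostly below 0, at a median of -0.68.

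Because several of the isotypes that rose are known from neurons, neuronal and neuroendocrine markers were read on the same arrays. Of 15 measured, 3 rose and 0 fell by limma, a share of rises close to the 20.9% of all genes, and 8 lay near background in both groups. The summed log2 value of the list was 57.7 and 59.2 with DMSO and 64.5 and 64.0 with vorinostat. The median change was only 0.07, so the higher sum does not stand for the list as a whole. Ncam1 (2.30, SE 0.10), Eno2 (1.68, SE 0.14) and Syn1 (1.71, SE 0.33) were the ones that rose. Chga, Chgb, Snap25, Insm1, Nefl, Nefm, Elavl4 and Dcx were near background on all 4 arrays, whereas Syp, Rbfox3, Elavl3 and Gap43 lay above it and did not pass. At an unadjusted p under 0.05, 2 of the 15 were lower and 3 higher. Of 10 epithelial markers 2 rose, Krt19 (1.10, SE 0.10) and Cldn4 (0.77, SE 0.11), and 2 fell, Krt8 and Cldn7 (-0.46, SE 0.11). Beside each of these marker counts stand 20.9% rises and 18.9% falls over all genes. The keratin Krt8 went from 12.25 and 12.36 to 11.11 and 11.40 (-1.05, SE 0.12, adjusted p = 0.00222), and Krt18 read 11.37 to 11.51 and did not pass. Of the prostate markers, the factor Hoxb13 read 8.24 on both DMSO arrays and 8.75 and 8.82 with vorinostat. The secretory genes Pbsn, Msmb and Spink1 were near background. Of 12 mesenchymal markers 4 rose and 4 fell, where 20.9% of all genes rose and 18.9% fell. The rises were those of the filament vimentin, at 13.05 to 13.47, Fn1 (0.66), Snai2 (0.81) and Pdgfra (1.54). The falls were those of Pdgfrb (-2.49), Col3a1 (-0.89), Zeb2 (-0.89) and Twist1 (-0.58). Of 9 immune markers 1 rose, Cd3e by 0.43 (SE 0.09), with summed values of 33.6 and 34.3 against 34.8 and 35.5, and Ptprc, which marks all leukocytes, lay near background. Of 5 endothelial markers, limma called 0, and at an unadjusted p under 0.05 there were 0 rises and 1 fall.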

How the data were processed

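RNA of PPS-ICBR cells was measured on 2 arrays after vorinostat and on 2 after DMSO. The authors deposited log2 values for each probe set. RMA and, without a version, the Transcriptome Analysis Console are named in the submitters' processing notes. Since RMA equalises the distributions of the arrays, it hides any shift common to all transcripts. The genome build was not given, so coordinates and sequences are not printed.

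Of 45101 probe sets, 64 controls were left out. The platform annotation gave 1 symbol to 34945 probe sets, several to 932 and none to 9160 that are unnamed here. A RefSeq gene table (GRCm38.p6) matched 34741 and changed 0 symbols. The groups were compared two-sided with limma 3.58.1 under R 4.3.3 (lmFit, then eBayes with 3.26 prior degrees of freedom), and p-values were adjusted by Benjamini-Hochberg across 45037 probe sets, no filter on low values and no block for the replicate number. The script was tested on simulated data. A gene was represented by its probe set of highest mean. Named genes were all member probe sets, up to 4 genes per list (the 2 largest rises and 2 largest falls past the threshold, or the smallest p) and the 3 nearest profiles of 3 members. Of 9 reference genes, 7 had a probe set of 1 symbol. Scaling, variance prior, filters, the probe sets per gene, the replicate block and each array in turn were varied. The members and lists were chosen with earlier results of these data known. The limit for near background was chosen after the values were seen.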

Additional observations from a re-analysis of the deposited data

How the results depend on the processing

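Every alternative was chosen with earlier results of these data known, and scanner files were not used here, so background correction was not varied. Tubb2b, Tubb3, Tubb5, Tuba1a, the brighter probe sets of Tubb2a and Tubb6 and the shared probe sets of Tuba1b and Tubb2b kept their direction and call under all 11 to 13 alternatives in which they were measured. Omitting single arrays gave ranges of 0.27 to 0.57 for Tubb2a 1427838_at, -0.05 to 0.22 for Tuba4a 1417375_at, -0.66 to -0.51 for Tuba1c 1416128_at and -0.60 to -0.51 for 1448232_x_at. A lone array of a group is then assumed to vary like the other group. The number of genes that rose ranged from 2094 to 2381 and that fell from 2046 to 2326. Folding genes that fell numbered 2 to 3, modifying enzymes that rose 5 to 6 and that fell 2 to 3, and gamma-tubulin and augmin genes that fell 9 to 11.

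Arrays of the same number showed no common deviation (correlation of -0.06 over all probe sets). With 2 arrays per group this cannot tell whether arrays of the same number were handled together, which nothing states. With the replicate block 3103 genes rose and 2892 fell, 4 member genes rose and 2 fell, and Tubb2a 1427838_at no longer passed at 0.42 (adjusted p = 0.0922). That probe set also missed the threshold with a robust prior (0.42), median centring (0.36), repeated quantile normalization (0.37) and probe sets without a mark (0.42). Without marked probe sets, 2 member probe sets and 2 member genes rose, as Tuba1a was no longer measured and Tubb2a kept only 1427838_at, which missed the threshold. In that setting 4 modifying enzymes and 0 gamma-tubulin and augmin genes rose, where 19% of all genes did.

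With an intensity trend Tuba4a passed at -0.18 and -0.30, member probe sets that fell became 5, and folding genes gave 7 rises and 11 falls. Median centring brought Tuba4a 1417374_at past the threshold at -0.36 and gave 8 falls of folding genes, as did repeated quantile normalization (8). Among probe sets above the median level Tuba4a 1417374_at passed at -0.30 and folding genes gave 5 rises and 8 falls. Of all genes, 21% fell with the trend, 21.4% with median centring, 19% with repeated quantile normalization and 32.2% above the median level. Rises made up 22.8% with the trend and 33.6% above the median level.

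Scaling on the reference genes raised every change by the same amount. It gave 11340 rises and 2048 falls over all genes, or 62.3% and 11.3%. Tuba4a turned to 0.19 and 0.07 and passed at 0.45 at its dimmest probe set, Tubb4a passed at 0.62, Tubb6 1446353_at turned to 0.09 and the Tuba1a and Gm6682 probe set to 0.13. The probe sets of Tuba1c lost their call at -0.22 and -0.18. Rises and falls numbered 12 and 1 for folding genes, 16 and 2 for modifying enzymes and 2 and 10 for gamma-tubulin and augmin genes. Rises numbered 3 for other tubulins and 24 for microtubule binders. The cause of these differences was not tested, apart from fewer probe sets or arrays where an alternative removes them.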
